A study of Mus musculus with 62 samples.

Results

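Wheel running left 2280 genomic regions of mouse quadriceps with less acetylation of histone H3 at lysine 27 (H3K27ac) than in sedentary animals, by the differential call deposited with the data. Of these, 1227 regions (53.8%) also overlapped, by at least 1 bp, an H3K27ac peak of untreated quadriceps (Quad) and one of soleus (Sol), and these 1227 regions are described here. They were chosen by the H3K27ac contrast of exercised against sedentary quadriceps and by the presence of a peak in each muscle. H3K27ac levels in the sedentary and exercised libraries, and the presence of Quad and Sol peaks, are therefore given as a description with no test. Of the other hypoacetylated regions, 788 lay at a Quad peak only, 50 at a Sol peak only and 215 at neither.

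The labels give the strain as C57BL/6, and by the study's methods the animals were male. Sed and Ex animals were young adult wild-type C57BL/6J mice housed singly, Sed without a wheel and Ex with a running wheel for several weeks, and Ex muscle was taken hours after the last bout. Quad, EDL (extensor digitorum longus), Sol and Dia (diaphragm) came from untreated wild-type mice. The mTg quadriceps came from transgenic mice that overexpress Pgc1a, a coactivator of mitochondrial genes, from the muscle creatine kinase promoter, and Wt quadriceps from their littermates, whose ages were not given in the sources used here. H3K27ac and H3K4me2 (dimethylation of histone H3 at lysine 4) were profiled by ChIP-seq with 2 libraries per group. Each quadriceps library came from 1 animal, while the smaller muscles were pooled from several. ChIP-seq of MED1, a Mediator subunit, had 1 library per muscle from pooled animals, and open chromatin of untreated quadriceps (ATAC-seq) was deposited as 1 peak list for 3 libraries.

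The 16 H3K27ac libraries held 11.7 to 24.2 M tags (M for mega). The 12 H3K4me2 libraries of Quad, EDL, Sol, Dia, Sed and Ex held 16.8 to 22.7 M. Those of Wt held 13.7 and 13.3 M. The Sed H3K27ac libraries were deeper (23.7 and 20.7 M) than the Ex libraries (18.5 and 17.1 M). Of 6 genes that mark myofibers (Myh4, Myh1, Myh2, Myh7, Acta1, Ckm), 5 had an H3K27ac peak in Sed and in Ex, and Myh7, the slow myosin, had none in Quad, Sed or Ex and 3 in Sol. Peaks of this list covered 71.1 kb in Sed and 33.4 kb in Ex. Among 17 genes that mark endothelium, immune cells, fibroblasts, satellite cells, adipocytes, smooth muscle or Schwann cells, 14 had a peak in Sed and 15 in Ex, covering 125.4 kb and 167.6 kb. At the 30 marker regions matched between the lists, the median H3K27ac difference was 0.29 log2 higher in Ex. Of them, 12 regions were higher and 3 lower in Ex with replicates that did not overlap. Over all 18430 matched regions the median was 0.05, and 31.1% were higher and 25.7% lower in this sense. None of these 17 genes was nearest to a region of the hypoacetylated list. In bulk muscle, fewer nuclei of a type and less signal per nucleus cannot be told apart, and the part of these other cell types in the values below was not tested.

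H3K27ac is deposited by the acetyltransferases p300 and CBP and marks active enhancers and promoters, whereas H3K4me2 marks promoters and enhancers more broadly, active or poised. Transposase-accessible sites within such regions are where transcription factors bind, and Mediator, of which MED1 is a subunit, joins bound factors to RNA polymerase II. In muscle, enhancers are bound by MEF2, myogenic bHLH, AP-1 and nuclear receptor proteins. Quadriceps of the mouse is mostly fast glycolytic, and soleus holds many slow oxidative fibers.

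ATAC sites inside these regions often held short sequences that such factors recognise, and the sites of 6 named regions are shown because the later results return to them. The words searched on both strands as exact letters were AGGTCA (nuclear receptor half-site), CAGCTG (E-box of myogenic bHLH proteins), TGAGTCA (AP-1) and TCAAGGTCA (ERR, which contains the half-site). The MEF2 word allows more than 1 base at several positions and is given, like the longer NRF1 word, by name. Bases are those of the mm10 forward strand, from the first to the last word with up to 40 bases on either side, and capitals mark the words.
Mettl21c, intron, chr1:44022687-44022980: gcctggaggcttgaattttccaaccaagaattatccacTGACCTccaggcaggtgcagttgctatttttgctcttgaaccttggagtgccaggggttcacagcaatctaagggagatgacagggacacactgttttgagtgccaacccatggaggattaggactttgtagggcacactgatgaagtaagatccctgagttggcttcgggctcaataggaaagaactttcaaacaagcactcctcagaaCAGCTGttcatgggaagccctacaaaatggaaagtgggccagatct
Usp13, intron, chr3:32890353-32890459: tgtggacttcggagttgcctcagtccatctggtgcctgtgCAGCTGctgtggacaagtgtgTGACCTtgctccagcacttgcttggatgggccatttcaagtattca
Tead1, intron, chr7:112741806-112742061: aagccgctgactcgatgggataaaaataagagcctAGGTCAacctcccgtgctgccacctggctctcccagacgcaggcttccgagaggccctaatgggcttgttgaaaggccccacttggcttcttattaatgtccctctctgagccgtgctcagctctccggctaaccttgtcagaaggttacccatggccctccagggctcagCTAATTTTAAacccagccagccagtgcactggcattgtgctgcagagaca
Mir1904 (in Pde4d), intron, chr13:109915549-109915651: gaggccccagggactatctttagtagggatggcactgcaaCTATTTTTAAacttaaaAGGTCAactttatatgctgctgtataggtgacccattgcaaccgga
Mir1a-1hg, intron, chr2:180385286-180385516: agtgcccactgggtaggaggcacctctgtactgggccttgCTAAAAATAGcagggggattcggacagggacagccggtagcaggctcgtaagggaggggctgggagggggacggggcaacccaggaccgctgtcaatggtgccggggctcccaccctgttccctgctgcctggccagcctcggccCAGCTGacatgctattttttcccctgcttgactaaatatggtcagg
Adamts5, intergenic, chr16:86044825-86044978: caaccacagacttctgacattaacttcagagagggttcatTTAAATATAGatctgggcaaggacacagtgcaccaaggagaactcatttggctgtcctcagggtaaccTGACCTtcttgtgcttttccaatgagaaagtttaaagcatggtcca
The Tead1, Mir1904 and Adamts5 sites carry a MEF2 word beside a half-site, the Mir1a-1hg site a MEF2 word beside an E-box, and the Mettl21c and Usp13 sites a half-site beside an E-box. A match is a description of the letters and not evidence that a factor was bound. Only sites with a word were shown, and each of those shown holds 2 kinds. Of all 1498 sites in the regions, 526 held no word and 629 held 1 kind.

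H3K27ac at the 1227 regions was lower in each Ex library than in each Sed library. On the transformed log2 scale of the hypoacetylated list, the mean level was 8.41 and 8.14 in the 2 Sed libraries and 7.55 and 7.38 in the 2 Ex libraries. The group means were 8.28 ± 0.19 in Sed and 7.47 ± 0.12 in Ex (SD, n = 2 library means each). The difference, Ex minus Sed, averaged -0.81, which places Ex at 57.1% of Sed, and ranged over the regions from -1.36 to -0.45 with a median of -0.80. The levels are taken to be a regularized logarithm, which would shrink differences at low levels, but the file headers do not name the transformation. Regions at a Quad peak only had a mean difference of -0.71. By width, the median difference was -0.65 under 2 kb, -0.78 from 2 to 4 kb, -0.84 from 4 to 8 kb and -0.88 from 8 kb, and the same widths among Quad-only regions gave -0.61, -0.75, -0.84 and -0.93. Of the 1227 regions, 401 (32.7%) had been called as a peak in Sed alone and 826 (67.3%) in both Sed and Ex.

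**Figure D1:**
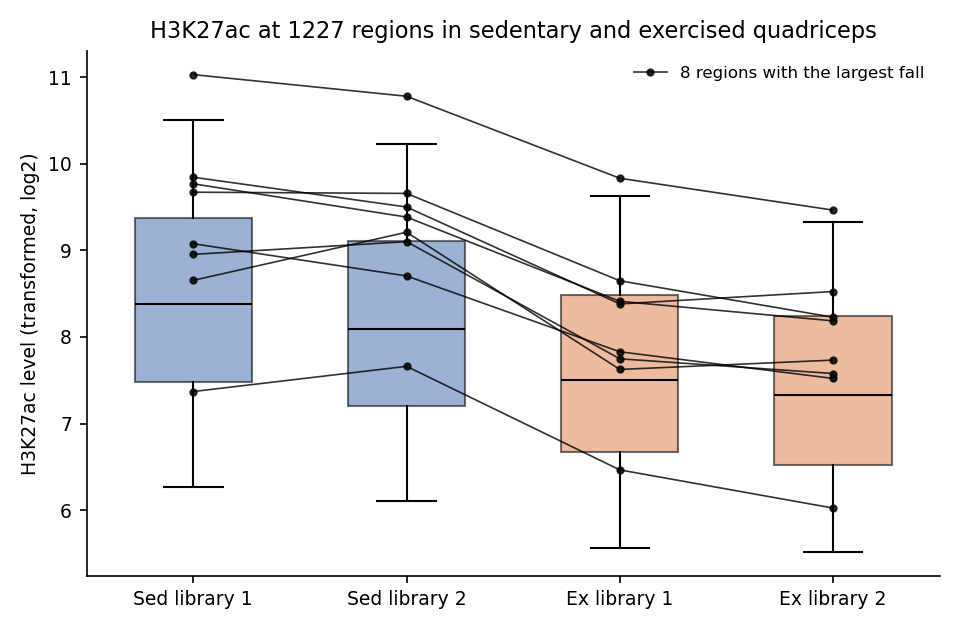
Transformed log2 H3K27ac level (vertical axis) of the 1227 regions in each of the 2 Sed and 2 Ex libraries; boxes span the quartiles with the median as a line, whiskers the 5th to 95th percentile, and points joined by lines are the same region for the 8 regions with the greatest Ex minus Sed difference. The mean level was 8.41 and 8.14 in Sed and 7.55 and 7.38 in Ex, and all 8 regions lay lower in both Ex libraries than in both Sed libraries.

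The greatest difference lay in an intron of Clic5, a gene for a chloride intracellular channel protein, at chr17:44213722-44218173 (4452 bp, 27.4 kb from the TSS). Its level was 8.95 and 9.10 in Sed and 7.75 and 7.58 in Ex, so that Ex was at 38.9% of Sed. An H3K4me2 peak was called there in Sed and Quad and none in Ex or Sol. Neighbouring introns of Asb5, which encodes a muscle ankyrin repeat protein of the SOCS box family, carried 2 of the 8 leading regions. The first, of 9094 bp at chr8:54557012-54566105, read 9.77 and 9.38 in Sed and 8.41 and 8.19 in Ex. The second, of 14831 bp and annotated to the nearby TSS of Spata4, read 11.03 and 10.78 in Sed and 9.83 and 9.46 in Ex. Both regions carried H3K4me2 peaks in Sed, Ex, Quad and Sol.

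The Mettl21c region, 9558 bp centred 1.05 kb from the TSS of a gene for a muscle lysine methyltransferase, read 8.65 and 9.21 in Sed and 7.62 and 7.73 in Ex. The region of Car1, a carbonic anhydrase gene, read 9.84 and 9.50 in Sed and 8.38 and 8.53 in Ex. Those of Krba1 and Ccdc43 read 9.67 and 9.66, and 7.37 and 7.66, in Sed. In Ex they read 8.65 and 8.23, and 6.46 and 6.02. The last of the 8, in an intron of the deubiquitinase gene Usp13, read 9.08 and 8.71 in Sed and 7.83 and 7.52 in Ex. The libraries of the groups did not overlap at any of these 8 regions, which belongs to the measure that chose them.

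The regions were wide and mostly lay away from promoters. Their median width was 3654 bp (range 626 to 40620), against 2131 bp for hypoacetylated regions at a Quad peak only and 2722 bp for the 18371 other non-promoter Sed or Ex regions that met both Quad and Sol peaks. Widths of at least 10 kb were reached by 90 regions (7.33%), by 0.254% of the Quad-only regions and by 4.28% of the other non-promoter regions. A wider region has more chance to touch a Sol peak by 1 bp, so the rule itself bears on the widths of both hypoacetylated sets. By the deposited annotation 780 regions (63.6%) lay within genes, 427 (34.8%) between genes and 20 (1.63%) at promoters. Promoters made up 0.888% of the Quad-only regions and 17.7% of the 22326 other Sed or Ex regions at peaks of both muscles. Counting instead every region with a TSS within 1 kb of its centre, the shares were 5.54% of the 1227 and 2.41% of the Quad-only regions. They were 33.4% of the 22326 other regions and 19.0% of the 18371 not annotated as promoters. From region centre to nearest TSS the median distance was 23.6 kb. Within 10 kb lay 349 regions (28.4%), from 10 to 50 kb 535 (43.6%), from 50 to 100 kb 184 and farther 159 (13.0%). Regions are not replicates of a condition, so these shares are set side by side with no test.

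The 5 widest regions belonged to genes of splicing, microRNA, signaling, triad and myosin kinase function. Rbfox1, a regulator of muscle splicing, held the widest in an intron, 40620 bp at chr16:7065316-7105935. Its level was 12.66 and 12.18 in Sed and 11.57 and 11.41 in Ex, the Ex group at 52.6% of Sed, and it held 5 ATAC sites. Mir1a-1hg, the host transcript of the muscle microRNA miR-1a-1, followed with 38273 bp. It read 12.24 and 11.97 in Sed and 11.39 and 11.18 in Ex. The 32571 bp region assigned to Mir1904 lay in Pde4d, a cAMP phosphodiesterase gene, and held 8 ATAC sites as well as MED1 peaks of both Quad and Sol. Its level was 12.72 and 12.12 in Sed and 11.63 and 11.08 in Ex. Jph2, a junctophilin that ties the sarcoplasmic reticulum to the surface membrane, had a region of 27910 bp that read 11.81 in both Sed libraries and 11.09 and 10.84 in Ex. Mylk4, a gene of the myosin light chain kinase family, had one of 25860 bp, which read 11.91 and 11.55 in Sed and 10.69 and 10.54 in Ex. Each of these 5 carried H3K4me2 peaks in Sed, Ex, Quad and Sol.

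Some genes had several of the regions, and no such count was made for other sets of regions. The 1227 regions had 922 nearest genes, of which 722 had 1 region and 10 had 5 or more. Usp13 had 9, Kcnj12 (an inward rectifier potassium channel) and Mir1904 had 6 each, and Bcl6 (a transcriptional repressor), Gm4861, Mir6344, Rbm20, Sec61b, Sox6 and Tead1 had 5 each. Joining regions no more than 20 kb apart gave 150 runs of 2 or more, which together held 367 regions (29.9%). The longest run by number was that of Usp13, with 9 regions over chr3:32817000-32893983 and differences from -1.22 to -0.63. Tead1, a factor of the Hippo pathway that binds muscle promoters, had 5 regions within chr7:112739157-112794795 whose differences lay between -1.06 and -0.89. The 5 regions of Rbm20, a regulator of titin splicing, lay within chr19:53675433-53756332 with differences from -1.10 to -0.75. The 6 regions of Kcnj12 had differences from -0.98 to -0.62 and the 5 of Bcl6 from -0.89 to -0.79. Sox6 represses slow fiber genes in fast muscle, and its 5 regions had differences from -1.04 to -0.86. A run at the myogenic regulator gene Myod1 and its neighbours Munc and Kcnc1 held 4 regions over chr7:46336759-46416601, from -1.02 to -0.83. Neighbouring regions share libraries and may share a gene, so they are not independent.

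By the deposited annotation 20 regions lay at promoters. The widest of these, 17596 bp at chr1:75391008-75408603, belonged to Speg, a kinase gene of striated muscle, and read 10.91 and 10.62 in Sed and 10.03 and 9.87 in Ex. The promoter region of Myh4, the fast type 2B myosin, spanned 17512 bp at chr11:67228583-67246094. It read 11.20 and 10.75 in Sed and 9.98 and 9.81 in Ex. In Sol its peak was 501 bp wide, so 2.86% of the region was covered, the least of all 1227. Ankrd23, a titin-associated ankyrin repeat gene, read 11.16 and 10.81 in Sed and 10.27 and 10.02 in Ex. Ppp1r3a, which targets a phosphatase to glycogen, read 10.17 and 9.71 in Sed and 9.16 and 9.05 in Ex. Clcn1, the muscle chloride channel, read 9.97 and 9.64 in Sed and 9.05 and 9.02 in Ex. Fgf6 and Klhl40 were among the others, and the 20 differences ran from -1.08 at Myh4 to -0.60 at Lrtm1.

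At the edge of the rule, the lower of the coverages by Quad and by Sol peaks was taken. It was least at Myh4 (2.86%), Mir7661 (2.97%), Psme4 (6.43%), Ttll4 (7.98%) and Tmpo (9.08%). Just outside it, hypoacetylated regions at Quad peaks lay 42 bp (Hivep2), 140 bp (A330074K22Rik), 333 bp (Clvs1) and 449 bp (Sh3bgr) from the nearest Sol peak. These are values of the measure that chose the regions.

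H3K27ac of the other muscles and H3K4me2 were called at many of these regions. EDL, a fast muscle, had an H3K27ac peak at 99.3% of the 1227 regions and Dia at 87.9%, whereas the Quad-only regions stood at 87.7% and 29.6% and the other non-promoter regions at 90.8% and 85.1%. H3K4me2 peaks of Quad overlapped 970 regions (79.1%) and those of Sol 697 (56.8%). The Quad-only regions stood at 63.7% and 12.6%, and the other non-promoter regions at 74.8% and 69.4%. Within 500 bp of the region centre, H3K4me2 of Quad met 67.2% of the 1227, 58.2% of Quad-only and 67.9% of other non-promoter regions. For Sol these shares were 45.4%, 11.2% and 63.1%. The H3K4me2 lists themselves differed in size, with 43525 peaks in Quad and 35696 in Sol. In Sed 785 regions (64.0%) met an H3K4me2 peak and in Ex 663 (54.0%), from lists of 35202 and 33989 peaks. A peak in Sed and none in Ex was found at 242 regions (19.7%), and the reverse at 120 (9.78%). These shares were 21.6% and 8.38% at Quad-only regions and 11.7% and 8.39% at other non-promoter regions. Among the other non-promoter regions 66.4% met a Sed and 63.1% an Ex H3K4me2 peak. With 1 list per group these shares carry no replicate error, and their 95% Wilson intervals (54.0% spans 51.2 to 56.8) cover counting error over regions only.

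**Figure D2:**
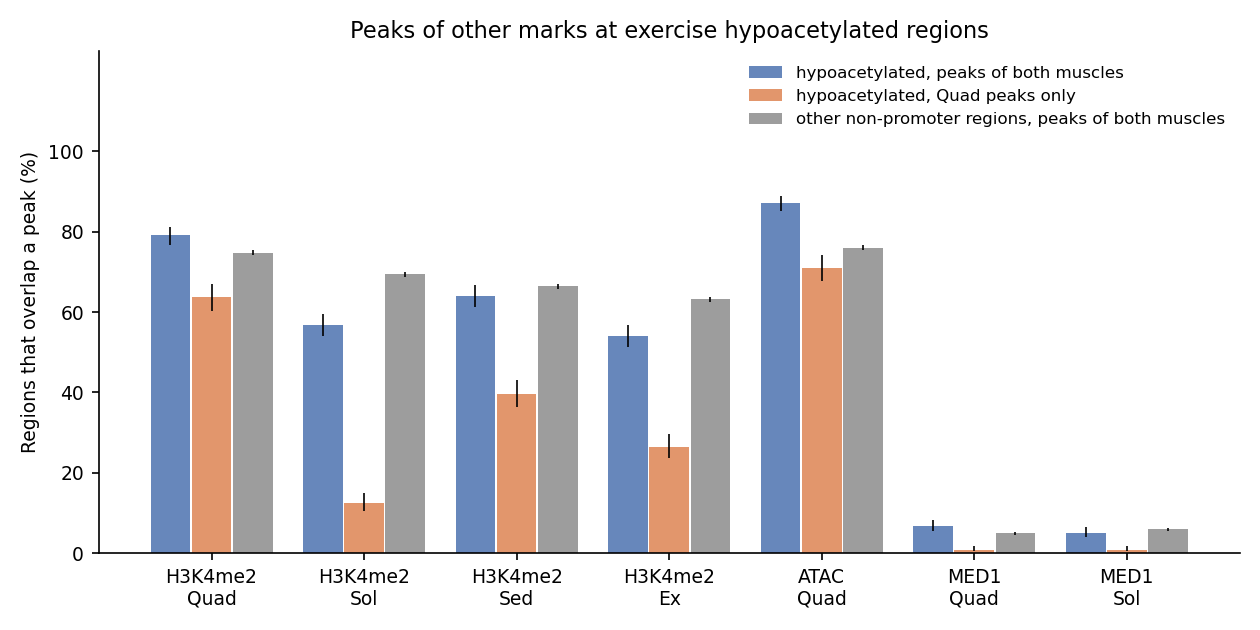
Share of regions (vertical axis, %) that overlap an H3K4me2, ATAC or MED1 peak of the named group, for the 1227 hypoacetylated regions at peaks of both muscles, the 788 at Quad peaks only and 18371 other non-promoter regions at peaks of both; bars show shares and lines 95% Wilson intervals, which cover counting over regions only. ATAC sites met 87.2% of the 1227 regions, and H3K4me2 peaks 79.1% in Quad, 56.8% in Sol, 64.0% in Sed and 54.0% in Ex.

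Open chromatin of untreated quadriceps was found at 1070 regions (87.2%), against 71.1% of Quad-only and 76.0% of other non-promoter regions. Within 500 bp of the region centre, a window of equal size for all sets, the shares were 56.0%, 56.9% and 49.5%. Together the 1227 regions held 1498 ATAC sites, or 2.56 per 10 kb, beside 3.10 at Quad-only and 2.61 at other non-promoter regions. Of the 1227, 326 regions (26.6%) had 2 or more, against 8.63% of Quad-only and 16.0% of other non-promoter regions. The shares over whole regions were higher at wider regions. ATAC sites met 65.8% of the 193 regions under 2 kb and 99.4% of the 159 of at least 8 kb, and H3K4me2 peaks of Sed met 40.9% and 86.8%. Among other non-promoter regions of the same widths, ATAC sites stood at 61.9% and 96.6%, and H3K4me2 of Sed at 54.5% and 92.3%. Neither an ATAC site nor an H3K4me2 peak of Sed, Ex, Quad or Sol was called at 40 regions (3.26%).

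MED1 peaks were few. MED1 of Quad met 82 regions (6.68%) and MED1 of Sol 62 (5.05%), from lists of 3593 and 4070 peaks. At Quad-only regions each stood at 0.888%, and at other non-promoter regions at 4.91% and 5.92%. Within 500 bp of the centre MED1 of Quad met 2.04% against 2.29% of other non-promoter regions, the reverse order, and MED1 of Sol 2.28% against 3.16%. Among the 159 regions of at least 8 kb, MED1 of Quad met 25.8% and MED1 of Sol 8.18%, beside 16.3% and 13.9% of other non-promoter regions of that width. With 1 library per muscle there is no replicate check. MED1 of both muscles met 13 regions, and the 5 with the highest Sed level were those of Mir1904, Rbm24, Nfil3, Pde4dip and Ddit4l. Rbm24, an RNA-binding protein of muscle splicing, read 11.59 and 11.23 in Sed and 10.71 and 10.36 in Ex. Nfil3, a repressor of the circadian output, read 11.39 and 11.24 in Sed and 10.73 and 10.15 in Ex, and MED1 of Dia was found there too. Pde4dip, a scaffold of phosphodiesterase, read 10.95 ± 0.35 in Sed and 10.14 ± 0.20 in Ex (SD, n = 2 each). Ddit4l, an inhibitor of mTOR signaling, read 9.97 ± 0.04 in Sed and 9.04 ± 0.15 in Ex (SD, n = 2 each). Trim63, the ubiquitin ligase of muscle atrophy also called MuRF1, was the 1 region with MED1 in all 4 muscles. Its level was 10.18 and 9.69 in Sed and 9.31 and 8.90 in Ex.

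Although all 1227 regions met a peak in both muscles, their H3K27ac was mostly lower in Sol than in Quad. Peak lists had been normalized separately, so levels were taken per kb, centred on each library's median over matched regions, and compared without a test. Peaks of both lists were matched one to one (reciprocal overlap of at least 50%). Each of the 1227 regions took the levels of the matched pair it overlapped most, by at least 1 bp. A pair may be narrower or wider than the region, and neighbouring regions may share a pair. Of the 1227 regions 808 were matched in this way, and the others overlapped no such pair. The median difference, Sol minus Quad, was -0.46 log2, beside 0.05 over all 19468 matched regions. Replicates did not overlap and Sol was lower at 501 of the 808 (62.0%), against 27.1% of all matched regions. Sol was higher in this sense at 67 (8.29%), against 33.7%. Without overlap and over 2-fold, 123 regions were lower in Sol (15.2%, against 2.08% of all matched regions). By the same measure 7 were higher in Sol (0.866%, against 1.51%). Markers of other cell types moved the opposite way, with a median of 0.23 log2 higher in Sol over 31 marker regions, 20 of them higher and 3 lower without overlap. Their part in the difference was not tested.

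The 5 regions lowest in Sol relative to Quad included one at a gene of fast fibers. That gene, Actn3, encodes an alpha-actinin and had centred levels of 1.38 and 1.35 in Quad and -0.72 and -0.77 in Sol, 4.32-fold lower in Sol. Gramd4 read 1.33 and 0.60 in Quad and -0.93 and -1.44 in Sol (4.43-fold lower). The region assigned to Prkab1, a subunit of AMP-activated kinase, lay within Tmem233 and read 1.00 and 0.98 in Quad and -0.92 and -1.39 in Sol. Adamts5, a matrix protease gene, had an intergenic region far upstream that read 1.77 and 1.93 in Quad and -0.28 and -0.18 in Sol. The fifth, near Sh2d4a and Psd3, differed by -2.09 log2. In the other direction, the regions of Mir8118, Zdhhc23, Cep120, Usp16 and Gm5420 were 2.45- to 2.59-fold higher in Sol. The Zdhhc23 region, for instance, read 0.77 and 0.35 in Sol and -0.76 and -0.83 in Quad. The libraries of the muscles did not overlap at any of these 10 regions, which the rule for naming required.

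The other marks and muscles were compared with Quad in the same way. For H3K4me2, 431 regions were matched, and Sol was lower without overlap at 373 (86.5%, against 32.5% of all matched regions), with a median of -0.58 log2. For H3K27ac of Dia against Quad, 777 were matched with a median of -0.22, and Dia was lower at 330 (42.5%, against 27.4%). For EDL against Quad, 1031 were matched with a median of 0.07, and EDL was lower at 193 (18.7%, against 25.6%) and higher at 267 (25.9%, against 28.1%). These contrasts share the Quad libraries and are given side by side.

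**Figure D3:**
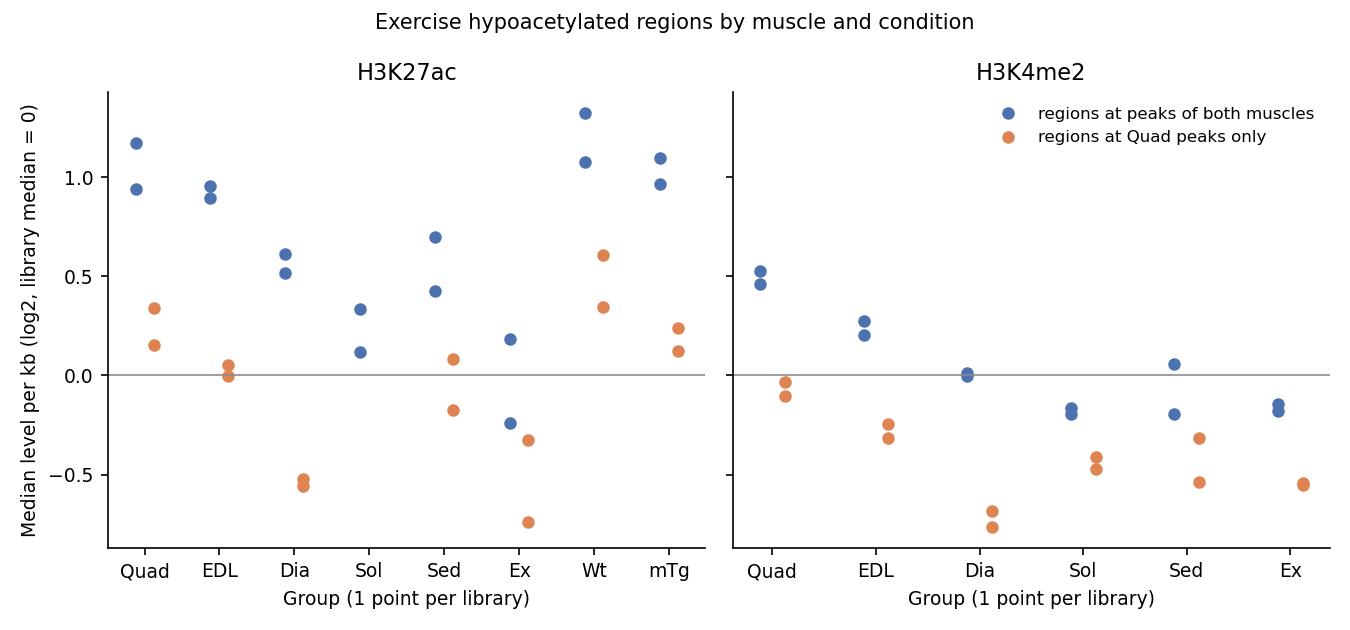
Median level per kb (log2, vertical axis, 0 being the library's median over its own peak list) at hypoacetylated regions with a peak in the list, 1 point per library, for H3K27ac (left) and H3K4me2 (right), with 2 libraries per group; lists were normalized separately, the number of regions with a peak differs between groups, and Quad-only regions have no Sol H3K27ac peak by definition. For the regions at peaks of both muscles, H3K27ac medians were 1.17 and 0.94 in Quad, 0.33 and 0.12 in Sol, 0.70 and 0.43 in Sed and 0.18 and -0.24 in Ex.

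H3K4me2 could be compared between Ex and Sed at 381 matched regions, those that overlapped a pair of H3K4me2 peaks matched between the lists. The median difference, Ex minus Sed, was -0.11 log2, beside 0.01 over all 21618 matched regions. Ex was lower without overlap at 122 of 381 (32.0%), against 26.9% of all, and higher at 45 (11.8%), against 28.0%. The median rested on the Sed libraries. It was 0.03 without Sed replicate 2 and -0.23 without Sed replicate 1. One region passed 2-fold, an intergenic region of 4673 bp near Tmem100 at chr11:90043998-90048670. The H3K4me2 peaks matched there had centred levels of 0.13 and 0.43 in Sed and -1.30 and -1.22 in Ex. The next in order were regions of Sel1l3, Tead1, Mettl21c and Man2a1. Tead1 read -0.45 and -0.31 in Sed and -1.38 and -1.37 in Ex. Mettl21c read -0.46 and 0.08 in Sed and -1.20 and -1.10 in Ex, and its region was also among the 8 with the greatest H3K27ac difference. In the other direction the 5 regions highest in Ex without overlap were those of Acsl3, Bod1, Apoo, Zbtb46 and Ankrd33b, by 0.70, 0.67, 0.58, 0.48 and 0.46 log2. The Acsl3 region read -0.35 and -0.06 in Ex and -0.91 in both Sed libraries.

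Wt quadriceps, whose libraries the rule did not use, was set against Sed and Ex. For H3K27ac of Sed against Wt, 972 regions were matched, the median difference was -0.09 log2, and Sed was lower without overlap at 269 (27.7%, against 22.5% of all). For Ex against Wt, 540 were matched with a median of -1.01, and Ex was lower at 515 (95.4%, against 26.4%). The Sed and Ex libraries chose the regions, so both counts are descriptions.

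With Pgc1a overexpression the regions were split between higher and lower H3K27ac. In mTg against Wt, 818 regions were matched and their median H3K27ac difference was 0.01 log2. The mTg libraries were higher without overlap at 260 (31.8%, against 30.9% of all 17448 matched regions) and lower at 269 (32.9%, against 32.5%), both near the share of all regions. The Quad-only regions, in contrast, were lower at 44.6% of 249. Of the 1227 regions, 41 (3.34%) overlapped a region deposited as hyperacetylated in mTg and 39 (3.18%) one deposited as hypoacetylated, and the Quad-only regions stood at 2.16% and 18.5%. Other non-promoter regions stood at 2.80% and 1.09%. At a reciprocal overlap of at least 50% the shares of the 1227 regions were 1.96% and 2.20%, and those of other non-promoter regions 1.92% and 0.768%. The difference between these sets was not tested.

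**Figure D4:**
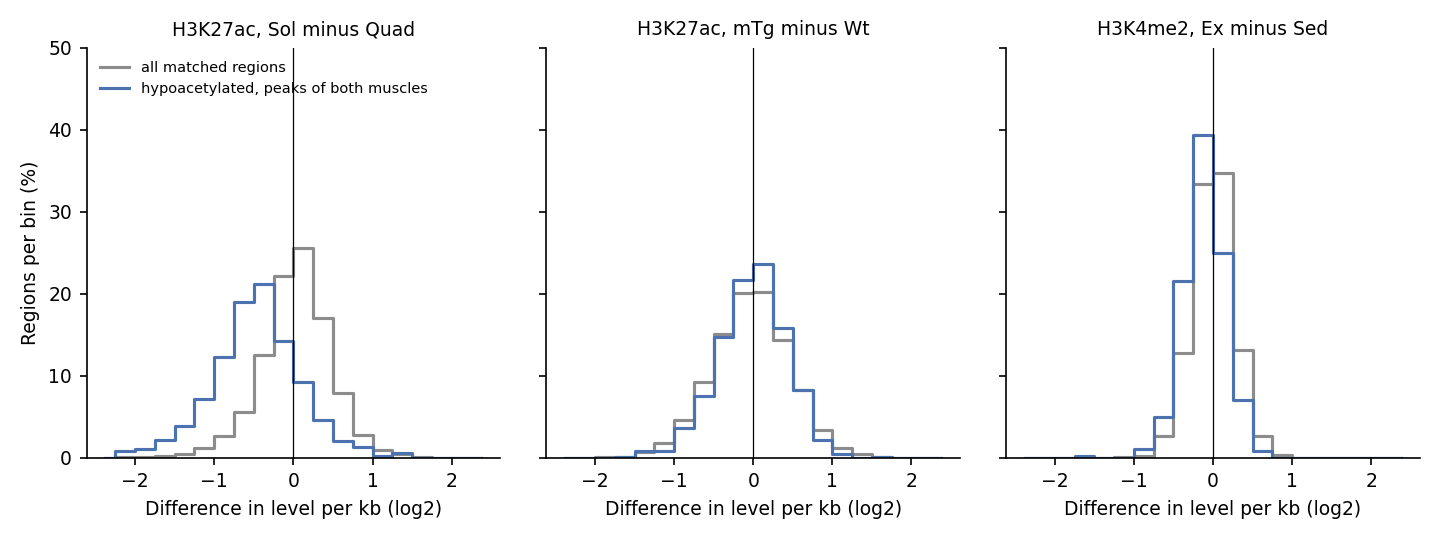
Share of regions (vertical axis, %) in each bin of the difference in level per kb (log2, horizontal axis) for H3K27ac of Sol minus Quad, H3K27ac of mTg minus Wt and H3K4me2 of Ex minus Sed, for all matched regions and for those of the 1227 that were matched (808, 818 and 381). The median of the 1227 set was -0.46, 0.01 and -0.11 in the 3 panels, and that of all matched regions 0.05 for Sol minus Quad.

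Single regions differed between mTg and Wt in both directions. Adig, a gene of adipocyte differentiation, had centred levels of 1.51 and 1.62 in mTg and -0.35 and 0.30 in Wt (3.01-fold higher). Regions of Egflam, Pja2, Cpe and Gm4285 were 2.00- to 2.16-fold higher. Pja2, a ubiquitin ligase that acts on protein kinase A, read 1.05 and 0.92 in mTg and -0.05 and -0.13 in Wt. Nek6, a mitotic kinase gene, had mean centred levels of -0.96 in mTg and 0.60 in Wt (2.94-fold lower). The region assigned to Mir7661 lay in Itpr1, an inositol trisphosphate receptor gene, and was 2.60-fold lower. Dkk3, Tnrc6c and Irgc1 followed with 2.45- to 2.47-fold. These 10 were chosen by this difference and carry no test.

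Genes of contraction, calcium handling and metabolism were represented to different degrees. Of 14505 genes nearest to any Sed or Ex region, 922 (6.36%) had at least 1 of the 1227 regions, and longer genes and genes with many peaks have more chances to be nearest. No enrichment was tested. Of 50 sarcomere and Z-disc genes nearest to any region, 20 (40%) had 1 of the 1227, with a median difference of -0.84 over 32 regions, beside -0.80 over all 1227. They were Actn2, Actn3, Ankrd23, Des, Mybpc2, Myh1, Myh4, Myl1, Mylk2, Myom1, Myom2, Myot, Myoz2, Pdlim3, Pdlim5, Tcap, Tmod1, Tpm1, Ttn and Xirp2. Mylk2, the skeletal myosin light chain kinase, had the highest Sed level, with 11.90 and 11.54 in Sed and 10.99 and 10.59 in Ex. Myl1, an essential light chain of fast myosin, read 11.30 and 11.41 in Sed and 10.57 and 10.46 in Ex. Myot, a Z-disc protein, read 11.27 and 11.08 in Sed and 10.34 and 10.05 in Ex.

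Of 38 genes of calcium handling and excitation, 14 (36.8%) had a region: Cacnb1, Cacng1, Camk2a, Camk2b, Clcn1, Jph1, Jph2, Mrln, Musk, Pvalb, Ryr1, Scn4a, Srl and Trdn. Scn4a, the sodium channel of the muscle action potential, read 10.66 and 10.22 in Sed and 9.76 and 9.55 in Ex. Camk2a, a calcium-dependent kinase, read 10.81 and 10.39 in Sed and 9.91 and 9.53 in Ex. Jph1, a junctophilin of the triad, read 10.21 ± 0.29 in Sed and 9.17 ± 0.45 in Ex (SD, n = 2 each). The libraries of Sed and Ex did not overlap at any of these 3 regions, which belongs to the measure that chose them.

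Glucose and glycogen genes had a region at 12 of 43 (27.9%), among them Ampd1, Ckmt2, Gyg, Pdk4, Pfkfb1, Pfkfb4, Pgam2, Phka1, Phkg1, Ppp1r3a and Slc16a3. Ampd1, the AMP deaminase of muscle, read 11.22 and 11.04 in Sed and 10.42 and 10.17 in Ex. Slc16a3, the lactate exporter MCT4, read 10.95 and 10.56 in Sed and 10.02 and 9.90 in Ex. Phkg1, the catalytic subunit of phosphorylase kinase, read 10.66 and 10.40 in Sed and 9.77 and 9.58 in Ex. Genes of fatty acid uptake, storage and oxidation had one at 4 of 44 (9.09%), which were Acacb, Acsl3, Lpin1 and Ppard. Lpin1, a phosphatidate phosphatase, read 10.40 and 9.69 in Sed and 9.20 and 8.72 in Ex. Acsl3, an acyl-CoA synthetase, read 9.47 and 9.36 in Sed and 8.55 and 8.23 in Ex.

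Mitochondrial and nuclear receptor regulators had a region at 11 of 45 genes (24.4%), among them Esrrg, Nr3c1, Nrip1, Perm1, Ppargc1a, Rarb, Rora, Tfam, Thrb and Vegfa. Perm1, a muscle regulator downstream of PGC1 and ERR, read 9.40 and 9.20 in Sed and 8.47 and 8.39 in Ex. Tfam, the mitochondrial transcription factor, had a region 12.5 kb upstream that read 9.62 and 9.65 in Sed and 8.80 and 8.64 in Ex. Muscle transcription factor genes had one at 13 of 53 (24.5%), which were Eya1, Eya4, Hdac4, Jun, Maf, Mef2c, Myf6, Myod1, Nfib, Rreb1, Sox6, Tead1 and Vgll2. These 13 genes held 33 regions with a median difference of -0.91. Myf6, a myogenic bHLH factor, read 11.25 and 10.76 in Sed and 10.32 and 9.89 in Ex. Mef2c read 10.24 and 10.12 in Sed and 9.45 and 9.21 in Ex.

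Genes of insulin signaling, growth and atrophy had a region at 13 of 54 (24.1%), namely Acvr2b, Bnip3, Cish, Fbxo32, Igf1r, Irs2, Map1lc3a, Mstn, Prkaa2, Prkab1, Prkag3, Tbc1d4 and Trim63. Prkaa2, the catalytic alpha 2 subunit of AMP-activated kinase, had a region of 20876 bp that read 11.52 and 11.29 in Sed and 10.64 and 10.56 in Ex. Cish, a suppressor of cytokine signaling, read 10.23 and 10.59 in Sed and 9.77 and 9.03 in Ex, and its region overlapped one deposited as hyperacetylated in mTg. Circadian clock genes had one at 7 of 23 (30.4%), among them Arntl, Ciart, Nfil3, Rora, Rorb and Tef. Arntl, the clock activator BMAL1, read 8.48 and 8.30 in Sed and 7.78 and 7.38 in Ex. Markers of cell types other than myofibers had none at 16 genes nearest to any region.

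Sequence words of muscle factors were counted at ATAC sites, as a description with no test. Within 300 bp windows on the 1498 sites, the MEF2 word occurred at 15.4%, the half-site shown above at Tead1 at 32.2%, the E-box at 32.4%, AP-1 at 9.88% and ERR at 0.801%. At 17639 sites of other non-promoter regions at both muscles the shares were 6.52%, 22.2%, 28.4%, 10.7% and 0.482%. The 629 sites of Quad-only regions held MEF2 at 13.0%, the half-site at 32.0% and the E-box at 28.9%. The NRF1 word was absent from the 1498 windows and present at 0.612% of the other sites. Among 32851 RefSeq promoters of GRCm38 in windows of the same length, MEF2 occurred at 3.19%, the half-site at 16.3%, the E-box at 16.3%, AP-1 at 5.20%, ERR at 0.423% and NRF1 at 0.971%. At least 1 word was found at 972 sites (64.9%), against 63.4% of Quad-only sites and 52.7% of other non-promoter sites. Of the 1498 sites 302 held 2 kinds of word, a count not made for the other sets.

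Base composition differed between the sets, with a median GC content of 50.3% at the 1498 sites, 48.3% at Quad-only sites and 54.0% at other non-promoter sites. Within bands of GC the MEF2 shares were higher than at other non-promoter sites. Under 45% GC they were 30.9% against 17.2% at other sites, from 45% to under 55% they were 13.5% against 8.35%, and from 55% they were 9.77% against 2.51%. In the same order of bands the half-site stood at 30.0% against 23.8%, 32.7% against 27.4% and 32.6% against 16.7%. The E-box was near the other sites in the lower bands, at 20.17% against 20.95% and 32.4% against 31.6%, and stood at 41.7% against 26.8% from 55%. AP-1 words were fewer in the lower bands, at 7.30% against 13.9% and 10.4% against 13.7%, and more frequent from 55%, at 10.1% against 7.11%. Several sites can share a region, and no test was run.

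**Figure D5:**
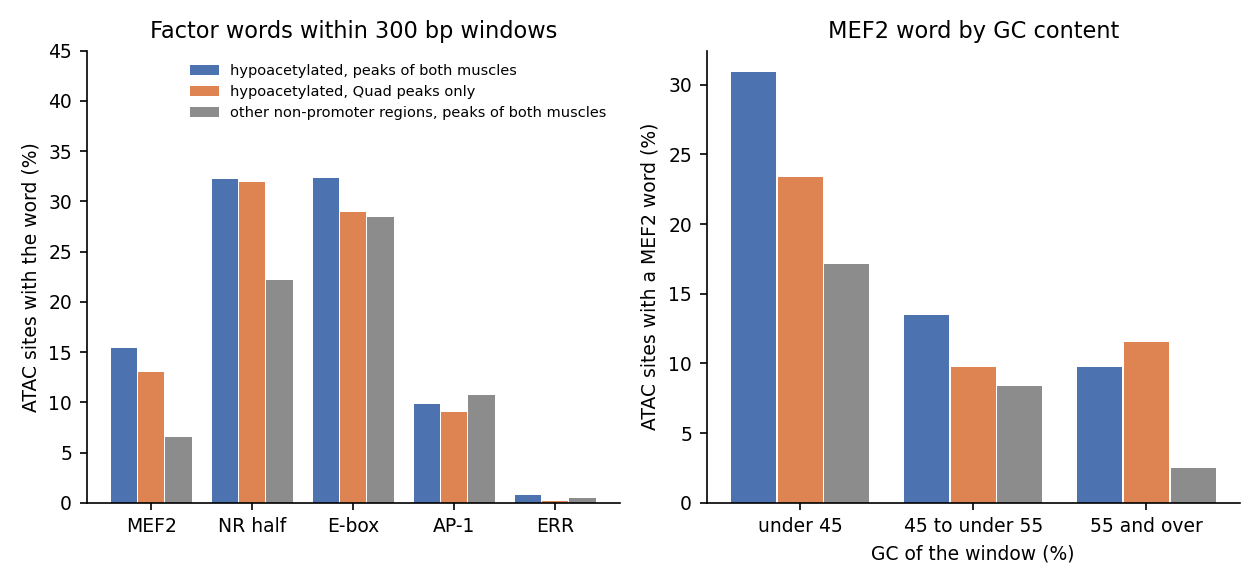
Left, share of ATAC sites (vertical axis, %) whose 300 bp window holds each factor word, for sites in the 1227 regions, in Quad-only regions and in other non-promoter regions at both muscles; right, the share with a MEF2 word within 3 bands of GC content of the window (horizontal axis, %). MEF2 words occurred at 15.4%, 13.0% and 6.52% of the sites of the 3 sets, and at 30.9% against 17.2% under 45% GC.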

How the data were processed

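Per the study's methods, the authors aligned ChIP-seq reads to mm10 with Bowtie, built HOMER tag directories with 1 tag per position, called peaks over input, and tested regions for differential H3K27ac with HOMER and DESeq2. The deposited histone lists hold 1 log2 level per library, transformed by the authors in DESeq2 and normalized separately for each list (taken to be its regularized logarithm), and a log2 enrichment over input. The deposited MED1 lists hold a peak score, and the deposited ATAC list an accessibility signal. The authors' columns of fold change and p-value for the differential lists were not used. ATAC lists of exercised and transgenic muscle, footprints and NFAT lists were not used here, and a few genes and 1 sequence word are not reported here.

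Regions were joined by overlap of at least 1 bp with Python 3.11.15, pandas 2.3.3 and numpy 2.4.6. Levels were compared across lists only between peaks matched one to one, per kb and centred on each library's median. Each region described took the levels of the pair it overlapped most. A promoter runs from 1 kb before to just after a TSS in the deposited annotation. Nothing was tested: the contrast chose the regions, or the lists were normalized separately. Scripts were tested on simulated data. Depth came from the file headers. Sequences and promoter windows are from GRCm38 (mm10, RefSeq).

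Named are the 8 regions with the greatest difference, the 5 widest, genes nearest to 5 or more regions, up to 4 regions with the highest Sed level per gene list, and the 5 with the largest difference in each direction for H3K27ac of Sol against Quad and of mTg against Wt. Also named are the 5 regions of highest Sed level with MED1 in both muscles. The promoter regions, the H3K4me2 regions of Ex against Sed, the Myod1 run and Trim63 were added after their values were seen. The regions and gene lists were chosen with earlier results of these data known.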

Additional observations from a re-analysis of the deposited data

How the results depend on the processing

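No paired analysis was possible because no result comes from a test, and the labels do not say that a replicate number marks a shared animal or batch. Requiring peaks of each muscle to cover at least 50% of a region left 883 regions, and peaks of 4-fold over input left 1105. A TSS within 1 kb of the centre gave a promoter share of 5.54%. In a window of 500 bp to each side of the centre, shares were 67.2% (Quad), 45.4% (Sol), 52.7% (Sed) and 43.5% (Ex) for H3K4me2, 56.0% for ATAC, and 2.04% and 2.28% for MED1 of Quad and Sol. With H3K4me2 peaks of 4-fold over input the 4 shares were 67.6%, 49.1%, 52.6% and 42.3%, and the top-scoring 50% of the ATAC list met 66.8%. Reciprocal overlap of 50% gave 1.96% hyperacetylated and 2.20% hypoacetylated in mTg. Words within 200 bp gave 0.40% for ERR, 25.9% for the half-site, 26.1% for the E-box, 8.41% for AP-1 and 56.5% for any word. Leaving out 1 library at a time, the H3K27ac difference of Ex and Sed ranged from -0.95 to -0.67 and that of Sol and Quad from -0.58 to -0.33. That of mTg and Wt ranged from -0.08 to 0.07 and the H3K4me2 difference of Ex and Sed from -0.23 to 0.03, so both changed sign. The causes were not tested. With 2 libraries per group and peak calls per group, shares have no replicate error, and 1 list of MED1 per muscle has no replicate check.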
